A study of Mus musculus with 18 samples.

Results

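The mitosis genes described here are 47 genes of G2 phase and mitosis: cyclins and their kinase, mitotic kinases, spindle checkpoint and kinetochore genes, spindle motors, cytokinesis genes, condensin subunits and the transcription factors of the program. They were taken by symbol from the expression table, which lists 54838 genes, and a member had to reach a mean of 0.2 TPM over the 18 samples to be kept. TPM is the number of reads per length of a gene, scaled to a fixed total in each sample, so that levels can be set side by side between genes. All 47 members passed, among 16574 genes of the table that did.

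Mitosis separates the copied chromosomes of a cell. Cyclin-dependent kinase 1 bound to A and B type cyclins drives entry, aurora and polo-like kinases build the spindle, the spindle checkpoint holds the cell until each kinetochore is attached, and the anaphase-promoting complex then tags securin and cyclin B for destruction. Most of these genes are transcribed late in the cell cycle and are low in adult liver, where few hepatocytes divide.

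The study asked how loss of the microRNA cluster miR-181ab1 changes liver tumours that are induced by diethylnitrosamine (DEN), a carcinogen that hepatocytes activate. RNA was sequenced from C57BL/6 mice of 36 weeks. Tumour, non-tumour and normal tissue was taken from wild type (WT) mice and from miR-181ab1 global knockout (GKO) mice, which lack the cluster in every tissue. The WT tumours, GKO tumours, WT non-tumours and GKO non-tumours came from mice given a single intraperitoneal DEN injection of 25 mg/kg at postnatal day 12, in male pups per the study's methods, and a non-tumour is liver tissue of a DEN-treated mouse outside its tumours. WT and GKO normal livers came from untreated mice. Each of the 6 groups held 3 samples. The labels do not say whether same-numbered samples came from 1 mouse, or whether the tumours of a group came from separate mice, so the p-values below measure the spread between these samples only. In a piece of tissue, fewer dividing cells and less RNA per cell cannot be told apart.

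Between 11924956 and 20751282 reads fell on genes in a sample, with a median of 16973727. The knocked-out cluster could not be used to check the labels: Mir181b-1 was listed at 0 in all 18 samples and Mir181a-1 in 17, and its only read lay in GKO tumour 3. Liver identity was clear, since Alb, the serum albumin gene, stood at 22860 to 139816 TPM. No replicate pair held identical values. Pearson's r between replicates over genes on the log2 scale ran from 0.919 to 0.982, highest between WT tumours 1 and 2 and lowest between WT tumours 1 or 2 and WT tumour 3. A few libraries stood apart for the mitosis genes, namely WT tumour 3, WT non-tumour 2 and GKO tumour 3, and the median fold changes in tumours and non-tumours are also given without them.

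In untreated liver the program was nearly silent. The median mitosis gene stood at 0.0827 to 0.103 TPM in the WT normal livers and at 0.114 to 0.166 TPM in the GKO normal livers. Between 12 and 23 of the 47 members had 3 reads or fewer in each of these samples. On the log2(TPM + 1) scale the sample medians were 0.13, 0.11 and 0.14 in WT normal livers, and 0.22, 0.16 and 0.18 in GKO normal livers.

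After DEN the non-tumours differed among themselves in the WT group. The medians were 0.34, 1.74 and 0.23 in WT non-tumours 1 to 3, and 0.28, 0.21 and 0.28 in the GKO non-tumours. WT non-tumour 2 lay above both other WT non-tumours in 45 of the 47 members, all but Pttg1 and Mybl2, and above the 11 other livers without tumour in 45. The tumour markers Afp (2.11 TPM) and Gpc3 (0.182 TPM) lay there within the range of the other livers without tumour. Pcna (36.5 TPM) was the highest, and Cbx7 (0.906 TPM) the lowest, of all livers without tumour. Whether WT non-tumour 2 held tumour tissue was not tested.

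Tumours carried the highest levels, but unevenly. WT tumours 1 and 2 had medians of 2.74 and 2.50, and WT tumour 3 had 0.71. GKO tumours 1 to 3 had 1.17, 1.11 and 2.37. The highest of the 18 samples was WT tumour 1 in 33 members, WT tumour 2 in 7 and GKO tumour 3 in 5. WT tumour 3 lay below both other WT tumours in 46 members, all but Nek2, and was the lowest of the 6 tumours in 41. WT tumour 3 also had less Afp, the alpha-fetoprotein gene, than its group: 66.1 TPM against 2353 and 3334 TPM. Gpc3 there was 108 TPM against 213 and 277 TPM.

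**Figure D1:**
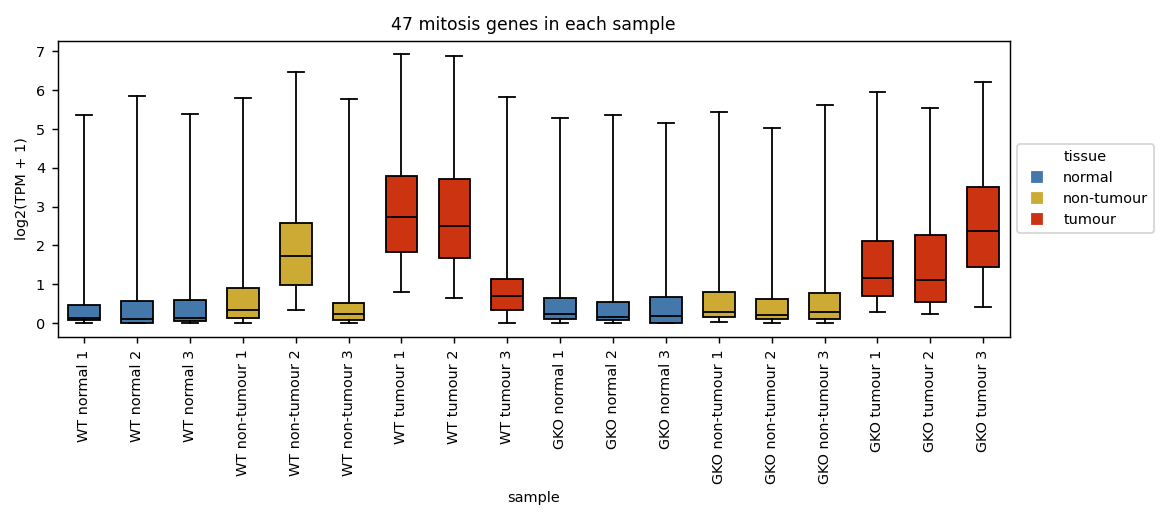
Levels of the 47 mitosis genes in each of the 18 samples, as log2(TPM + 1); boxes span the quartiles, the black line is the median over genes, and whiskers reach the lowest and highest gene. WT non-tumour 2 (median 1.74) stands above every other liver without tumour, and WT tumour 3 (0.71) below the other 5 tumours.

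Reads on the mitosis genes rose and fell with the same samples. Their share of all reads on genes was 0.0098% to 0.0137% in normal livers of both genotypes, 0.0081% to 0.0137% in GKO non-tumours, and 0.0436% in WT non-tumour 2. It reached 0.09% and 0.0781% in WT tumours 1 and 2, 0.0151% in WT tumour 3, and 0.0301%, 0.0247% and 0.0531% in the GKO tumours. Summed TPM over the 47 members was 648, 554 and 134 in the WT tumours and 256, 192 and 394 in the GKO tumours.

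**Figure D2:**
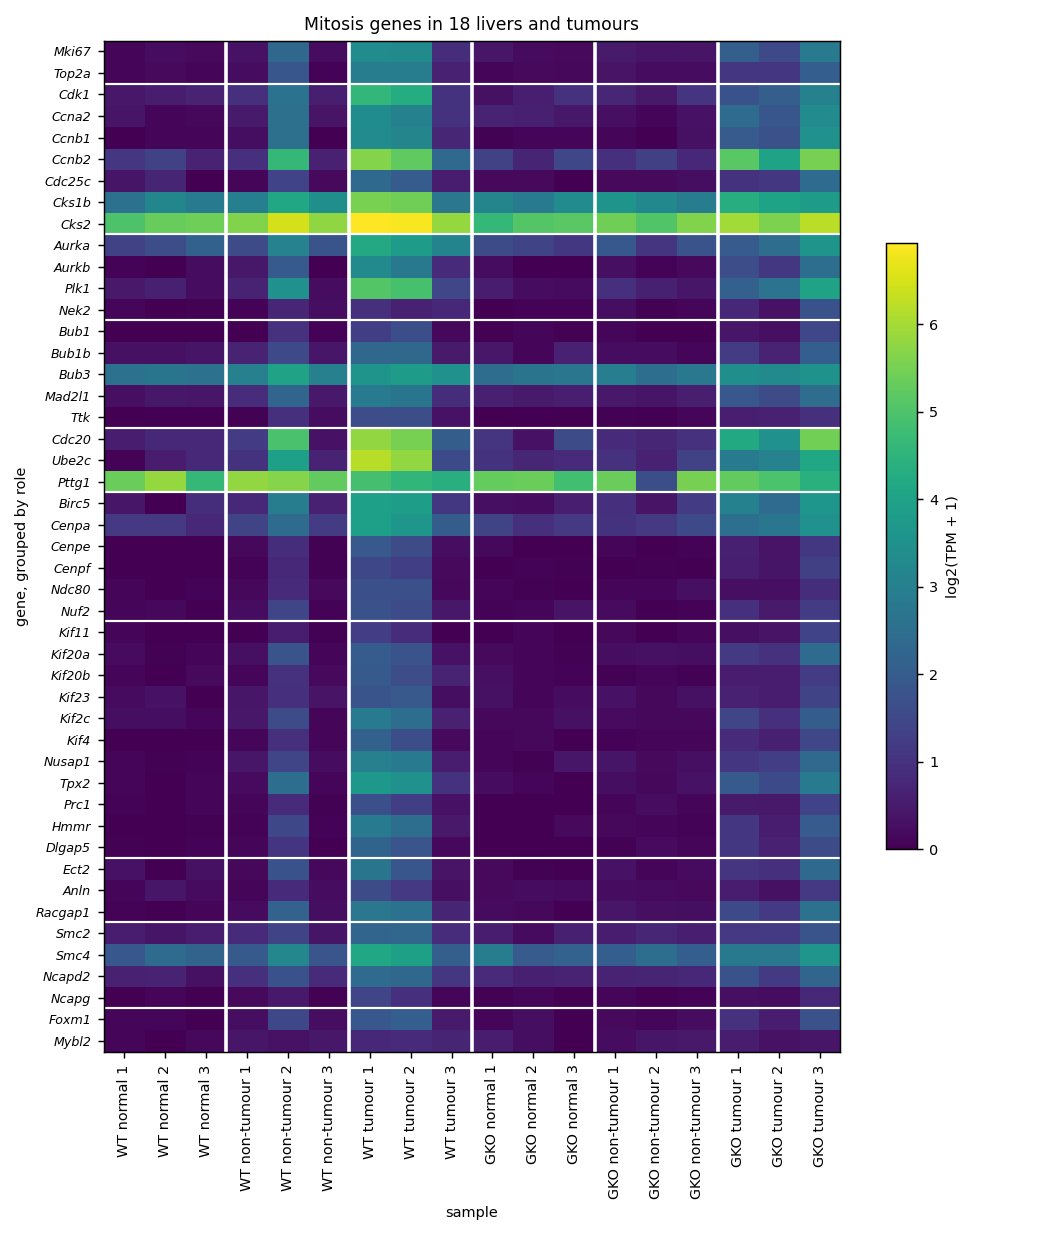
Level of each mitosis gene (rows, grouped by role) in each sample (columns), as log2(TPM + 1). Cks1b, Cks2, Bub3, Pttg1 and Smc4 are bright in all tissues, while most other rows are brightest in tumours and in WT non-tumour 2.

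The promoters of genes that rise together in G2 often hold a CHR element, the letters TTTGAA or TTCGAA, with CCAAT boxes, and bind the DREAM and MMB-FOXM1 complexes. RefSeq promoter windows on GRCm38.p6, the build mm10, were at hand for 39 of the 47 members in 42 windows of 250 bases before to 50 after the start. TTTGAA or TTCGAA occurred on either strand in 29 of the 39 genes (74.4%), against 21.7% of the 27025 genes with a window. CCAAT occurred in 74.4% against 41.1%, and both together in 64.1% against 8.61%. These are letter matches and not shown sites. Stretches of 30 bases around the element follow for members whose values carry the results below, read on the strand of the gene with the element in capitals. They are Ccnb2 (chr9:70421533-70421562, minus strand), Cdk1 (chr10:69352910-69352939, minus), Plk1 (chr7:122159453-122159482, plus), Cdc20 (chr4:118437344-118437373, minus), Ube2c (chr2:164769888-164769917, plus), Mki67 (chr7:135716460-135716489, minus), Aurka (chr2:172370521-172370550, minus) and Cenpa (chr5:30666890-30666919, plus). In Ube2c the element lies on the other strand and is printed as its complement.
Ccnb2: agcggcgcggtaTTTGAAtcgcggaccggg
Cdk1: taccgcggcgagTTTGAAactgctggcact
Plk1: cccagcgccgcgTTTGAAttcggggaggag
Cdc20: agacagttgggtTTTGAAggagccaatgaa
Ube2c: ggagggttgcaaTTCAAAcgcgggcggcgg
Mki67: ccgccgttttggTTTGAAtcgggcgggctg
Aurka: aaaaggagaaccTTTGAAttgtaacggctg
Cenpa: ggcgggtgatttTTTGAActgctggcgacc

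The deleted cluster encodes miR-181a and miR-181b, whose seeds (bases 2 to 8, in capitals) are the same. They lie on the plus strand at chr1:137966468-137966490 and chr1:137966650-137966673. The 3' UTRs of 10 of the 47 members (21.3%) held a match to seed bases 2 to 8, against 17.6% of 12794 genes at 0.2 TPM or more with an annotated 3' UTR. The 10 were Ccna2, Pttg1 and Smc2, whose match also ends in an A, and Ccnb1, Cks1b, Aurkb, Cenpf, Kif4, Nusap1 and Hmmr.
mmu-miR-181a-5p: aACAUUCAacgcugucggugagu
mmu-miR-181b-5p: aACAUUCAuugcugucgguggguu

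Tumours of GKO mice were set against GKO non-tumours to ask which mitosis genes rise with tumour formation when the cluster is absent. Of the 35 members tested, 17 were higher in the GKO tumours and 0 were lower, at an adjusted p under 0.05 in limma with Benjamini-Hochberg adjustment. Of all 14092 genes tested, 7.75% were called higher and 3.97% lower. The 17 were Mki67, Top2a, Cdk1, Ccna2, Ccnb1, Ccnb2, Aurkb, Plk1, Mad2l1, Cdc20, Ube2c, Birc5, Cenpa, Kif2c, Nusap1, Tpx2 and Racgap1. The tested members had log2 fold changes of TPM + 1 from 0.55 to 3.88 with a median of 1.25 (all genes 0.20). An unadjusted p under 0.05 was found for 31, against 31.7% of all genes. Adding 1 to each TPM understates the change of low genes, and the median was 2.62 with a pseudocount of 0.1 and 2.94 in voom on recovered reads. Without GKO tumour 3 it was 1.04. Over all genes the split was 1092 higher and 560 lower, and centring each sample on its median moved the median gene from 0.20 to -0.04 and the split to 777 and 990, with 15 members called higher and 0 lower. The other 12 members, such as Bub1, Kif11 and Mybl2, fell under the minimum mean of 0.5 TPM for a test, which keeps members that are high in tumours more readily than others. Over all 47 members and without that minimum, 43 were higher in each GKO tumour than in any GKO non-tumour, against 23.5% of the genes that reached 0.2 TPM over the 18 samples. The 4 that overlapped were Cks2, Pttg1, Ndc80 and Mybl2.

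Tumours of WT mice were set against WT non-tumours in the same way, and 0 of the 46 tested members passed in limma in either direction, while 2.16% of 14003 genes were called higher and 2.07% lower. Only 4 of the 46, Aurka, Cenpa and Kif20b (higher) and Pttg1 (lower), had an unadjusted p under 0.05, against 19.9% of all genes. Voom on recovered read counts also called 0. Even so, 45 of the 46 had a log2 fold change above 0, with a median of 0.98 (all genes -0.02) and adjusted p from 0.093 to 0.674. The median was 1.91 with a pseudocount of 0.1 and 2.25 in voom. It was 1.58 without WT tumour 3 and 1.35 without WT non-tumour 2. The groups overlapped through these libraries: WT non-tumour 2 exceeded WT tumour 3 in 44 of 47 members. WT tumour 3 exceeded both WT non-tumours 1 and 3 in 40 of 47. Only Aurka and Mybl2 were higher in all 3 WT tumours than in every WT non-tumour (2 of 47, against 9.96% of genes), and Pttg1 was lower in all 3 (1 of 47, against 13.1%). Against untreated WT livers, 40 of 47 members were higher in every WT tumour (31.6% of genes), and 44 of 47 in every GKO tumour against GKO normal livers (31.5%).

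**Figure D3:**
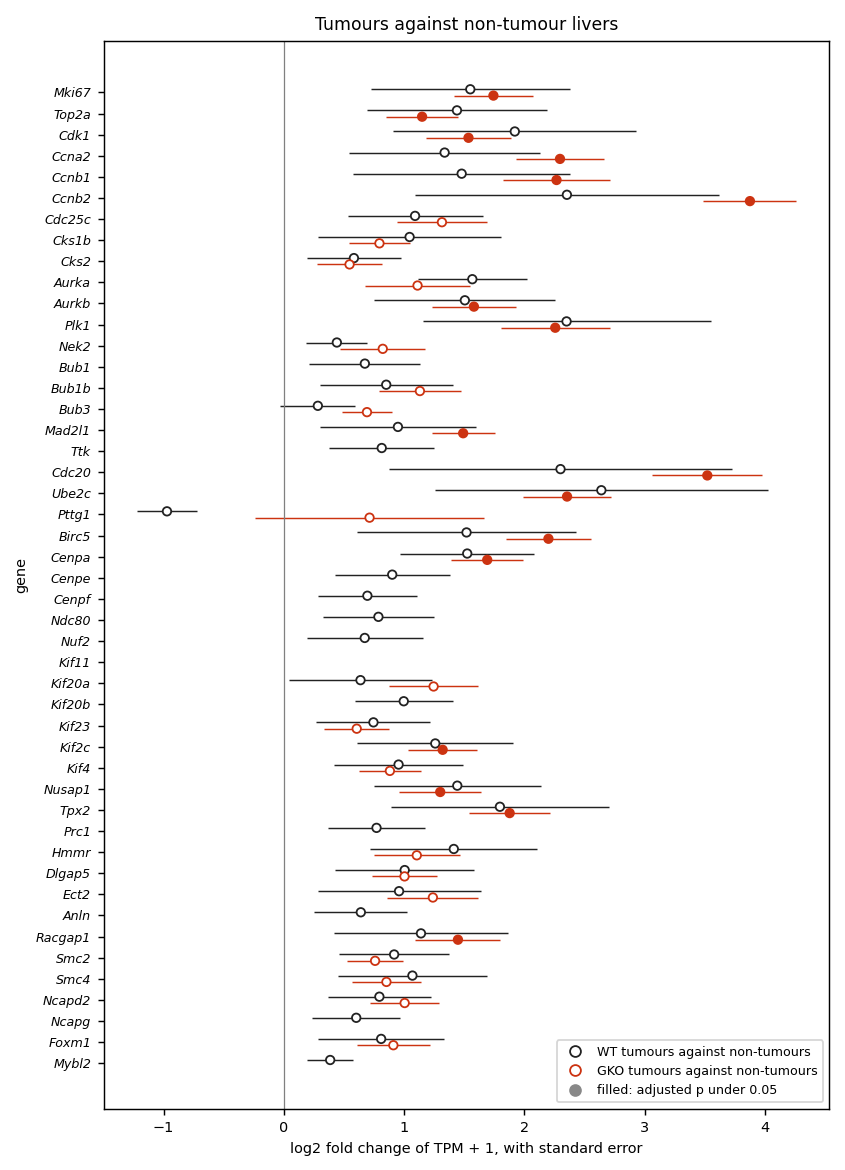
Log2 fold change of TPM + 1 between tumours and non-tumours for each mitosis gene, with its standard error, in WT mice (black) and GKO mice (red); filled points have an adjusted p under 0.05 (17 in GKO, 0 in WT), and a gene without a point was not tested. WT bars are wider than GKO bars for most genes, and Pttg1 alone lies below 0 in WT.

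Genotype was compared directly in tumours, and 0 of 47 members passed in limma in either direction, with 0 at an unadjusted p under 0.05 and 0 by voom. Of 13964 genes tested, 0% were called higher and 0.0215% lower in GKO tumours, and 8.87% had an unadjusted p under 0.05. In 41 of the 47 members the tumours had a log2 fold change below 0, the range was -1.17 to 0.47 and the median -0.36 (all genes 0.09). WT tumours 1 and 2 lay above all 3 GKO tumours in 35 members, and WT tumour 3 lay below all 3 in 41. Mybl2 alone was lower in every GKO tumour than in every WT tumour (1 of 47, against 4.37% of genes). Without WT tumour 3 the median was -0.90, without WT tumour 1 it was -0.06, and without GKO tumour 3 it was -0.62. In each of these fits 0 members were called. Without WT tumour 3, 37 of 14031 genes were called higher and 110 lower, and 0 genes in the other fits.

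Whether the tumour difference itself differed between genotypes was tested as an interaction over the 12 tumour and non-tumour samples, and 0 of 44 tested members passed in limma, with 0 at an unadjusted p under 0.05 and 0 by voom (0% of 14106 genes were called higher and 0.0142% lower). The interaction medians were 0.05 over the members and 0.23 over all genes on the log2 scale. The 17 calls in GKO mice against 0 in WT mice are therefore not shown to be a difference between genotypes.

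The proliferation antigen Ki-67 (Mki67), which coats mitotic chromosomes, was at 9.44, 8.72 and 0.878 TPM in WT tumours 1 to 3 and at 3.28, 1.88 and 6.21 TPM in GKO tumours 1 to 3. Its non-tumour values were 0.266, 4.09 and 0.178 TPM in WT and 0.406, 0.304 and 0.296 TPM in GKO mice. GKO tumours and non-tumours did not overlap, and the WT groups did. The log2 fold change was 1.74 (SE 0.33, adjusted p = 0.0201, limma) in GKO and 1.55 (SE 0.83, adjusted p = 0.357) in WT mice. Top2a, the topoisomerase that untangles chromosomes, was at 6.47, 6.55 and 0.553 TPM in WT tumours and at 1.15, 1.13 and 3.22 TPM in GKO tumours. Its non-tumour values were 0.162, 2.64 and 0.0398 TPM in WT and 0.298, 0.170 and 0.165 TPM in GKO mice. It rose by 1.15 (SE 0.30, adjusted p = 0.0476) in GKO tumours, just inside the threshold, and its WT value was 1.44 (SE 0.75, adjusted p = 0.343).

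Cdk1, the kinase that drives entry into mitosis, was at 23.0, 18.6 and 1.01 TPM in WT tumours and at 2.33, 3.30 and 7.24 TPM in GKO tumours. Non-tumours had 0.913, 5.14 and 0.484 TPM in WT and 0.673, 0.388 and 1.08 TPM in GKO mice. WT tumour 3 thus sat at the level of the quiet non-tumours, and the GKO tumours were all above theirs. The fold change was 1.54 (SE 0.35, adjusted p = 0.0361) on the log2 scale in GKO mice and 1.92 (SE 1.01, adjusted p = 0.351) in WT mice. Between genotypes Cdk1 was -1.0 (SE 0.93, adjusted p = 0.762) in tumours, among the larger of the genotype differences, with an SE nearly its size.

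Cyclin B2 (Ccnb2), a partner of Cdk1, showed the largest tumour difference of the 35 members tested in GKO mice. Its levels were 34.5, 15.3 and 44.2 TPM in GKO tumours against 0.918, 1.5 and 0.729 TPM in GKO non-tumours. WT tumours had 49.5, 37.0 and 4.14 TPM and WT non-tumours 0.954, 23.4 and 0.546 TPM. The log2 fold change was 3.88 (SE 0.39, adjusted p = 0.00487) in GKO mice and 2.35 (SE 1.26, adjusted p = 0.36) in WT mice. Ccnb2 was also among the 6 members with a genotype difference above 0 in tumours, at 0.47 (SE 0.87, adjusted p = 0.892).

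Cyclin A2 (Ccna2), which works from S phase into early mitosis, was at 4.32, 2.63 and 9.10 TPM in GKO tumours and 0.219, 0.0625 and 0.273 TPM in GKO non-tumours. Cyclin B1 (Ccnb1), the main mitotic cyclin, was at 3.00, 2.32 and 10.3 TPM against 0.0909, 0 and 0.235 TPM in the same groups. GKO tumour 3 held the highest value of all 18 samples for Ccnb1. In WT mice Ccna2 was at 9.36, 7.28 and 1.03 TPM in tumours and 0.417, 4.89 and 0.293 TPM in non-tumours. Ccnb1 was at 9.18, 7.94 and 0.672 TPM against 0.202, 4.85 and 0 TPM there. Both rose in GKO tumours, Ccna2 by 2.30 (SE 0.36, adjusted p = 0.0127) and Ccnb1 by 2.27 (SE 0.44, adjusted p = 0.0224). The WT values were 1.34 (SE 0.80, adjusted p = 0.411) and 1.48 (SE 0.90, adjusted p = 0.424). Processed copies of Ccnb1 are near-identical to it, and their own mean level was at most 0.0362 TPM.

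Cks1b and Cks2 encode small adaptors of the cyclin-dependent kinases and were already expressed in untreated liver, Cks2 at 23.3 to 41.1 TPM over the 6 normal livers. Cks1b was at 45.8, 42.0 and 5.74 TPM in WT tumours and at 18.9, 15.3 and 13.1 TPM in GKO tumours, against 7.03, 16.6 and 9.87 TPM and 11.1, 8.39 and 6.72 TPM in the non-tumours. WT tumour 3 lay below all 3 WT non-tumours. Its log2 differences were 1.05 (SE 0.76, adjusted p = 0.507) in WT and 0.79 (SE 0.25, adjusted p = 0.0809) in GKO mice. Cks2 ranged from 31.9 to 121 TPM over tumours and non-tumours, and copies such as Gm15452, at a mean of 1.54 TPM, can share its reads. Cdc25c, the phosphatase that releases Cdk1, was not called in GKO tumours (1.31, SE 0.37, adjusted p = 0.0614).

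Aurka, the aurora kinase of centrosome and spindle poles, had every WT tumour above every WT non-tumour, as Mybl2 did. The Aurka values were 17.2, 13.1 and 7.79 TPM against 1.97, 7.35 and 2.50 TPM. WT tumour 3 thus lay only just above WT non-tumour 2. The adjusted p of Aurka was 0.122 in limma at a log2 fold change of 1.57 (SE 0.46). GKO tumours had 2.99, 4.59 and 11.1 TPM against 2.77, 1.06 and 2.45 TPM, a difference of 1.11 (SE 0.43, adjusted p = 0.13). Aurkb, the kinase of the chromosomal passenger complex, was at 2.09, 1.16 and 4.71 TPM in GKO tumours and at 0.217, 0.0433 and 0.126 TPM in GKO non-tumours. The WT tumours held 8.91, 5.99 and 0.769 TPM and the WT non-tumours 0.372, 2.91 and 0 TPM. It rose by 1.58 (SE 0.35, adjusted p = 0.0318) in GKO tumours, and its WT value was 1.5 (SE 0.75, adjusted p = 0.328).

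Plk1, the polo-like kinase, was at 32.6, 29.1 and 1.80 TPM in WT tumours and at 3.35, 5.23 and 14.8 TPM in GKO tumours. The WT non-tumours had 0.609, 10.4 and 0.163 TPM and the GKO non-tumours 0.929, 0.522 and 0.338 TPM. It rose by 2.26 (SE 0.46, adjusted p = 0.0245) in GKO tumours, and the WT value was 2.35 (SE 1.2, adjusted p = 0.335). The size was thus nearly the same with a far larger error in WT mice. Nek2, a centrosome kinase, was the member in which WT tumour 3 (0.703 TPM) was not the lowest WT tumour.

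Among the spindle checkpoint genes, Mad2l1 was called in GKO tumours, at 2.7, 1.98 and 4.57 TPM against 0.396, 0.319 and 0.503 TPM (log2 fold change 1.49, SE 0.26, adjusted p = 0.0166). WT tumours had 6.24, 5.50 and 0.864 TPM and WT non-tumours 0.827, 3.78 and 0.399 TPM. Bub3, a checkpoint protein that all cells hold, was expressed everywhere, at 4.54 to 5.62 TPM in normal livers, 8.97 to 10.7 TPM in GKO tumours and 10.3 to 12.9 TPM in WT tumours. Its highest value of the 18 was WT non-tumour 2, at 15 TPM. The log2 differences from non-tumours were 0.69 (SE 0.21, adjusted p = 0.0701) in GKO and 0.28 (SE 0.31, adjusted p = 0.674) in WT mice. Bub1, the checkpoint kinase, was at 0.348, 0.225 and 1.76 TPM in GKO tumours, while the GKO non-tumours held at most 3 reads each. WT tumours had 1.42, 2.18 and 0.104 TPM and WT non-tumours 0, 0.984 and 0.0549 TPM (0.67, SE 0.46, adjusted p = 0.478).

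Cdc20, the activator of the anaphase-promoting complex, was at 17.6, 10.3 and 43.2 TPM in GKO tumours and at 0.821, 0.683 and 0.996 TPM in GKO non-tumours. WT tumours held 54.7, 44.7 and 3.15 TPM and WT non-tumours 1.30, 29.6 and 0.256 TPM. After Ccnb2 it had the largest difference in GKO mice, 3.52 (SE 0.46, adjusted p = 0.00792), and the WT value was 2.30 (SE 1.42, adjusted p = 0.43). Ube2c, the ubiquitin-conjugating enzyme of the complex, was at 6.12, 7.34 and 16.4 TPM in GKO tumours against 0.983, 0.540 and 1.53 TPM, and rose by 2.35 (SE 0.37, adjusted p = 0.0125). WT tumours reached 71.2, 55.1 and 1.92 TPM, and WT non-tumours 1.03, 14 and 0.597 TPM. Ube2c exons overlap those of Tnnc2 on the opposite strand over 22.8% of their length, and whether the library kept strand is not given in the sources used here.

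Pttg1, which encodes securin, the inhibitor of separase, did not follow the other members. It stood at 23.6 to 56.4 TPM in WT normal livers and 27.5 to 40.4 TPM in GKO normal livers. WT tumours had 28.6, 22.8 and 19.4 TPM and WT non-tumours 54.7, 50.1 and 37.2 TPM, so every WT tumour was below every WT non-tumour. The log2 difference was -0.97 (SE 0.25, unadjusted p = 0.00638, adjusted p = 0.093, limma). GKO tumours had 37.6, 30.4 and 20.3 TPM, and GKO non-tumours 39.7, 2.17 and 44.6 TPM. GKO non-tumour 2 was the only sample of the 18 below 19 TPM, on 34 reads. The log2 difference in GKO mice was 0.71 with that sample and -0.54 without it, neither of them called.

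**Figure D4:**
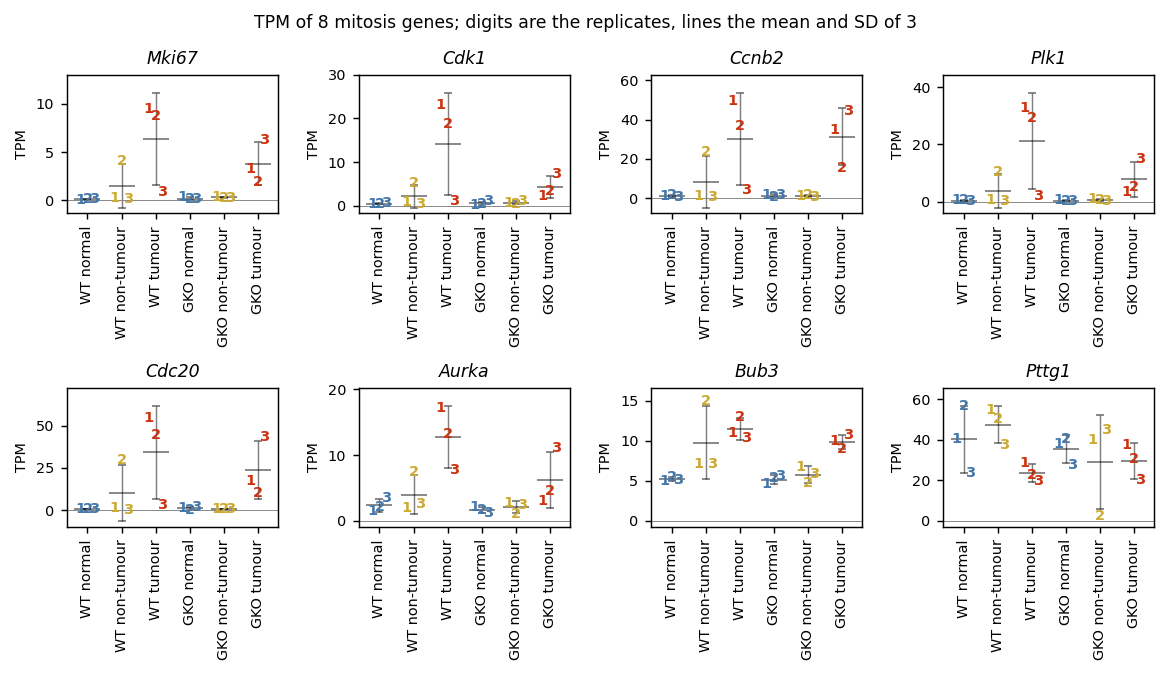
TPM of 8 mitosis genes in the 6 groups; each digit is the replicate of that number, and lines give the mean and SD of 3 samples. In Mki67, Cdk1, Ccnb2, Plk1 and Cdc20, WT non-tumour 2 lies above WT tumour 3 and below WT tumours 1 and 2. Aurka has all 3 WT tumours above the WT non-tumours, Bub3 is expressed in every sample, and Pttg1 is lower in WT tumours than in WT non-tumours.

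At the centromere and kinetochore, Birc5 (survivin, a chromosomal passenger) was at 7.32, 4.35 and 11.5 TPM in GKO tumours against 0.901, 0.3 and 1.31 TPM, and rose by 2.20 (SE 0.36, adjusted p = 0.0133). WT tumours had 13.9, 13.6 and 1.2 TPM and WT non-tumours 0.716, 6.59 and 0.562 TPM (1.52, SE 0.91, adjusted p = 0.414). Cenpa, the histone variant that marks the centromere, was at 4.76, 5.65 and 10.4 TPM against 1.02, 1.24 and 1.86 TPM in GKO mice, a rise of 1.69 (SE 0.30, adjusted p = 0.0168). In WT mice Cenpa was at 14.2, 11.4 and 3.13 TPM against 1.66, 4.37 and 1.28 TPM (1.52, SE 0.56, adjusted p = 0.199). The other members of the role, Cenpe, Cenpf, Ndc80 and Nuf2, did not exceed 2.81 TPM in any sample and were not tested in GKO mice.

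Of the 11 spindle motors and spindle proteins, 8 were tested in GKO mice and 3 passed: Tpx2, which activates Aurka on spindle microtubules (1.88, SE 0.33, adjusted p = 0.0174), the microtubule depolymerase Kif2c (1.32, SE 0.29, adjusted p = 0.0309) and Nusap1, which binds spindle microtubules (1.30, SE 0.34, adjusted p = 0.0498). Tpx2 was at 2.87, 1.94 and 6.30 TPM in GKO tumours and 0.191, 0.109 and 0.265 TPM in GKO non-tumours. Its WT tumours had 12.0, 10.4 and 1.02 TPM and its WT non-tumours 0.156, 4.71 and 0.0766 TPM. Kif11, the motor that pushes spindle poles apart, was low throughout. It was at 1.41, 0.834 and 0 TPM in WT tumours and at 0.225, 0.279 and 1.64 TPM in GKO tumours, and its genotype difference in tumours was -0.03 (SE 0.43, adjusted p = 0.992). Kif20a exons overlap those of Cdc23 on the opposite strand over 29.3% of their length, so its level is uncertain.

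In cytokinesis Racgap1, a regulator of the central spindle, passed in GKO mice (1.45, SE 0.35, adjusted p = 0.0412), while its partner Ect2 did not (1.24, SE 0.38, adjusted p = 0.0745). None of the 3 tested condensin subunits passed there. Smc4, a condensin core subunit, was already at 2.71 to 6.72 TPM in normal livers. It was at 16.5, 14.4 and 3.31 TPM in WT tumours and at 5.92, 5.80 and 11.4 TPM in GKO tumours, with non-tumours at 2.87, 8.16 and 2.55 TPM and 3.21, 4.63 and 3.17 TPM. The differences were 1.07 (SE 0.62, adjusted p = 0.395) in WT and 0.85 (SE 0.29, adjusted p = 0.0961) in GKO mice.

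Foxm1, the transcription factor that activates G2 genes, was at 2.67, 3.17 and 0.413 TPM in WT tumours and at 0.978, 0.468 and 2.31 TPM in GKO tumours. Non-tumours held 0.190, 1.85 and 0.187 TPM in WT and 0.133, 0.0887 and 0.172 TPM in GKO mice. Its differences were 0.81 (SE 0.52, adjusted p = 0.451) in WT and 0.91 (SE 0.30, adjusted p = 0.0932) in GKO mice. Mybl2, the B-Myb subunit of the MMB complex, followed another order: 0.731, 0.815 and 0.636 TPM in WT tumours and at 0.444, 0.264 and 0.342 TPM in GKO tumours. Its WT non-tumours, at 0.342, 0.264 and 0.361 TPM, did not rise in the second sample, and its GKO non-tumours were at 0.165, 0.331 and 0.402 TPM. The genotype difference in tumours was -0.36 (SE 0.19, adjusted p = 0.626), without overlap.

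In non-tumours, GKO against WT, 0 of the 26 tested members passed in limma in either direction (0% of 13768 genes were called), and 0 by voom. None had an unadjusted p under 0.05, against 5.8% of all genes. All 26 had a log2 fold change below 0, from -1.40 to -0.12, with a median of -0.60 (all genes -0.15). The minimum mean of 0.5 TPM let part of the 26 in only through WT non-tumour 2, which favours values below 0. Without WT non-tumour 2 the median of the 15 members still tested was 0.0049, with 8 above 0 and 7 below. Of the 47 members 8 were lower in every GKO non-tumour than in any WT non-tumour, against 8.42% of genes: Ccna2, Cks2, Bub1b, Bub3, Kif20b, Kif23, Ncapd2 and Foxm1. In normal livers 0 of 12 tested members passed (0% of 13099 genes), with 0 at an unadjusted p under 0.05 (3.96% of genes) and 0 by voom. Bub1, Ccna2 and Mad2l1 (3 of 47) were higher in every GKO than in every WT normal liver, against 6.11% of genes. Bub1 had 3 reads or fewer in each of these 6 livers.

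DEN exposure without tumour was compared with no treatment. In WT mice 0 of 26 tested members passed in limma (0.00744% of 13440 genes were called higher and 0% lower), and voom called 0. An unadjusted p under 0.05 was found for 2 (Bub3 and Cks2), against 24.4% of all genes. All 26 log2 fold changes were above 0, with a median of 0.72 (all genes 0.32). The minimum mean of 0.5 TPM let many of these members in only through WT non-tumour 2, which favours values above 0. Without that sample 12 members were tested, with a median of 0.26, 9 above 0 and 3 below. Of the 47 members 17 were higher in every WT non-tumour than in every WT normal liver, against 27.9% of genes. Ccnb1 had at most 3 reads in each WT normal liver, so its mean in WT non-tumours was at least 13.9-fold higher than a floor of 3 reads, through WT non-tumour 2. In GKO mice 0 of 13 tested members passed (0% of 13530 genes), with 0 at an unadjusted p under 0.05 (5.2% of genes) and 0 by voom. The median there was 0.12 (all genes 0.08), and 6 of 47 members were higher in every non-tumour (7.54% of genes) and 1, Ccna2, was lower (1.67%).

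Leaving out a single library moved the number of calls in both tumour comparisons. In WT mice 6 members were called higher without WT tumour 3: Cdk1 (log2 fold change 3.06, adjusted p = 0.0361), Cenpa, Cks1b, Kif23, Ndc80 and Nusap1. Of all genes tested there, 5.26% were called higher. Without WT non-tumour 2 a single member was called, Aurka (2.02, adjusted p = 0.0344), where 2.87% of genes were called higher. Without any of the other 4 libraries 0 members were called, where 0.717% to 0.829% of genes were. In GKO mice the 17 calls became 4 without GKO non-tumour 3 (Birc5, Ccnb2, Cdc20 and Ube2c), 5 without GKO non-tumour 2 and 11 without GKO non-tumour 1. They became 13 without GKO tumour 1 or 3 and 19 without GKO tumour 2. The total number of genes called moved too, from 1092 higher (7.75%) to 147 (1.04%) without GKO non-tumour 3 and 339 (2.4%) without GKO non-tumour 2. Without GKO non-tumour 1 the share of all genes called higher was 8.27%. It was 4.85%, 5.94% and 3.54% without GKO tumours 1, 2 and 3. Birc5, Ccnb2 and Cdc20 passed in all 13 alternative fits, Ccna2 and Ube2c in 12, and Top2a in 2 of the 12 in which it was tested.

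**Figure D5:**
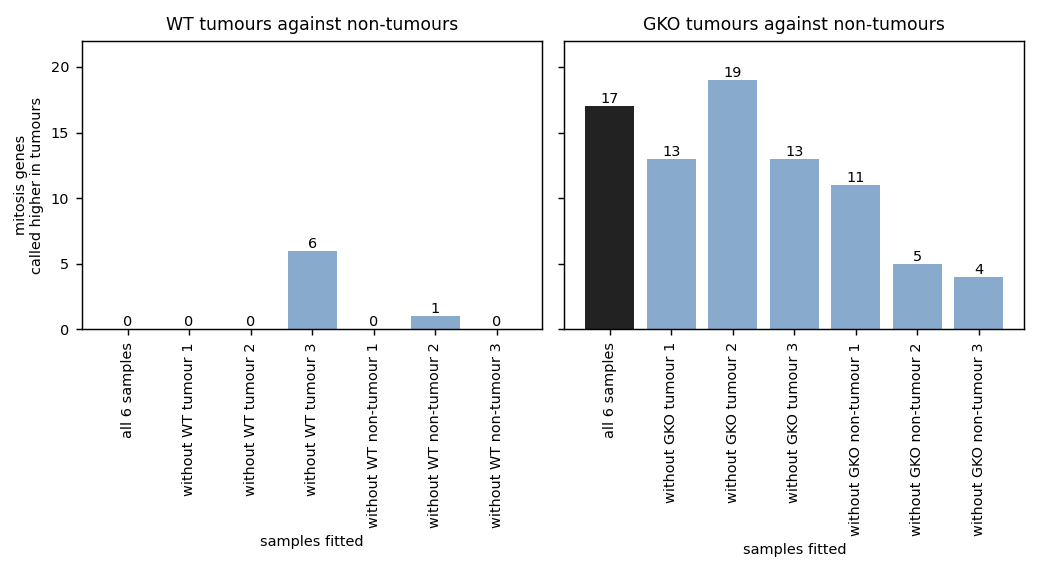
Number of mitosis genes called higher in tumours than in non-tumours (adjusted p under 0.05, limma) with all 6 samples (black) and with each sample left out in turn (blue), in WT mice (left) and GKO mice (right). WT counts stay at 0 except without WT tumour 3 (6) or WT non-tumour 2 (1), and GKO counts run from 4 to 19.

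A list of 71 other mitotic genes gave counts of the same kind. In GKO tumours against non-tumours 14 of 48 tested passed as higher and 0 as lower, against 7.75% and 3.97% of all genes, with a median log2 fold change of 0.87. The minimum mean of 0.5 TPM let some of the 48 in only through the tumours, which favours values above 0. Ckap2 was such a gene, at 2.96, 1.94 and 8.41 TPM in GKO tumours against 0, 0.159 and 0.0386 TPM. The largest were Cdkn3, a phosphatase of cyclin-dependent kinases (2.82, SE 0.30, adjusted p = 0.00506), Cdca3 (2.55, SE 0.33, adjusted p = 0.0078), Ckap2 (2.17, SE 0.41), Stmn1, the microtubule destabiliser stathmin (2.16, SE 0.31), and the spindle motor Kifc1 (1.98, SE 0.28). In WT mice 1 of 62 passed, where 2.16% of all genes were higher, the kinetochore gene Spc25 (1.64, SE 0.33, adjusted p = 0.0461), at 14.9, 13.8 and 8.14 TPM in WT tumours against 1.91, 3.30 and 4.72 TPM. Between tumours of both genotypes 0 of 63 passed, and 1 had an unadjusted p under 0.05, against 8.87% of all genes. WT non-tumour 2 stood out in this list as well, with a summed level of 434 TPM against 170 and 188 TPM in its group.

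Regulators of the program were counted in the same way. Of 16 genes of the anaphase-promoting complex and its helpers, 2 were higher in GKO tumours, Ube2s, which extends ubiquitin chains (1.24, SE 0.25, adjusted p = 0.0237), and Cdc16, a subunit (1.09, SE 0.25, adjusted p = 0.034), against 7.75% of all genes. None of the 16 passed in WT mice, and 0 had an unadjusted p under 0.05, against 19.9% of all genes. Of the regulators in the DREAM complex, the E2F family and NF-Y, 0 of 20 tested passed in GKO tumours against non-tumours, and 0 in WT mice. An unadjusted p under 0.05 was found for 5 in GKO mice (31.7% of all genes) and 3 in WT mice (19.9%).

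Markers of cell types moved between tumours and other tissue beside the mitosis genes. The summed level of 10 hepatocyte markers was 214692 to 240041 TPM in the 6 tumours and 74456 to 111139 TPM in the 12 livers without tumour. Alb alone made up 83554 to 139816 TPM of the tumour sums and 22860 to 44073 TPM of the others. Not all 10 rose: Ttr was at 14513, 11294 and 6881 TPM in GKO tumours against 11858, 15057 and 14916 TPM in GKO non-tumours. In GKO tumours 4 of 10 were called higher, and in WT tumours 2 of 10. Beside these counts stand 7.75% of all genes called higher and 3.97% lower in GKO tumours, and 2.16% higher in WT tumours. Fibroblast markers summed to 106 to 201 TPM in GKO tumours and 60.7 to 89.9 TPM in GKO non-tumours, with 5 of 12 called higher and Dcn lower. Cholangiocyte markers summed to 49.0, 565 and 973 TPM over the GKO tumours, ordered from the lowest, and to 32.7 to 59.2 TPM in the WT tumours, with 0 called, and Spp1 alone made up 34.0, 536 and 934 TPM of the GKO sums. Endothelial markers had 3 of 10 called higher in GKO tumours, macrophage markers 2 of 10 lower, B and plasma cell markers 2 of 7 tested lower, erythroid markers 1 of 5 tested lower and T and NK cell markers 0 of 7 tested. In WT non-tumour 2 the sums of hepatocyte (86830 TPM), fibroblast (51.0 TPM), endothelial (60.1 TPM), macrophage (227 TPM), B and plasma cell (25.9 TPM) and erythroid markers (379 TPM) were each the lowest of the WT non-tumours, and T and NK cell markers (7.24 TPM) lay between the others. Its cholangiocyte sum (91.2 TPM) was the highest, of which Spp1 made up 74.2 TPM, while Sox9, Krt19 and Krt7 were lowest there. Members of the lists with low sums did not all move together in WT non-tumour 2. Acta2 (11.35 TPM), Col1a1 (8.45 TPM), Cdh5 (11.95 TPM), Emcn (3.19 TPM), Cd68 (25.2 TPM) and Alas2 (79.9 TPM) were its highest of the WT non-tumours. Dcn (6.23 TPM), Clec4g (5.02 TPM) and Clec4f (5.95 TPM) were among its lowest. Of the hepatocyte markers, Apob (432 TPM) and Cps1 (504 TPM) were highest there among the WT non-tumours. Alb, Ttr, Fgb and Serpina1c were lowest, and Ahsg, Apoa1, Hpx and Tat lay between. The part of cell composition in the mitosis gene levels was not tested.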

How the data were processed

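Per the labels and the study's methods, total RNA from 18 liver and tumour samples was sequenced, and the authors mapped reads to mm10 with STAR 2.7.3a and counted them with featureCounts 2.0.0. The authors deposited TPM values per gene, and fold changes were taken from log2(TPM + 1). Replicates were not pooled. Here TPM multiplied by exonic length (GENCODE M21, 54809 genes) gave whole reads within 0.02 for 97.97% to 98.67% of values up to 30 reads, which gave the depths and the read counts for voom.

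Groups followed genotype and tissue in the labels. Each comparison was fitted in limma 3.58.1 (R 4.3.3; lmFit, eBayes with trend, two-sided) on its own samples, over genes averaging 0.5 TPM or more, with Benjamini-Hochberg adjustment over all genes tested. The scripts were tested on simulated data. An exact permutation test of 3 against 3 samples cannot go below p = 0.1, so none is given. The members and lists were chosen with earlier results of these data known. Tumour levels were given for 20 members fixed by name, as single values or as ranges. For the called members with the largest changes fold changes were given. Other mitotic genes were named as the 5 largest per comparison among those called. Deviations from group means correlated weakly between same-numbered GKO and WT tumours (0.101, 0.12 and 0.197 for numbers 1 to 3). In the other comparisons these correlations ran from -0.315 to 0.249, and none had all 3 above 0.1. They were not tested, and the labels give no pairing. Alternatives were pseudocounts, filters, centring, one fit of all 18 samples, a replicate block, voom, WT tumours 1 and 2 averaged, and leaving out each replicate.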

Additional observations from a re-analysis of the deposited data

How the results depend on the processing

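The 17 members called higher in GKO tumours than in GKO non-tumours became 23 with a pseudocount of 0.1, 21 with voom, 15 with median centring, 15 with the replicate block, 10 (of 16 tested) with a minimum mean of 2 TPM, 9 with all 18 samples in one fit and 5 (of 47 tested) with no filter on low values. Of all genes tested, 1133 of 14092 were called higher with the pseudocount of 0.1, 897 of 14091 with voom and 777 of 14092 with centring. The replicate block gave 973 of 14092, the minimum of 2 TPM 971 of 9996, all 18 samples 1966 of 13914 and no filter 381 of 26005. Leaving out 1 replicate gave 4 to 19 members, where 1.04% to 8.27% of all genes were called higher. In WT tumours against WT non-tumours the count of 0 became 3 with all 18 samples in one fit (Aurka, Cenpa and Kif20b). In that fit 752 of 13914 genes were called higher. With 1 replicate left out the count was 0 to 6, where 0.717% to 5.26% of all genes were called higher. Where a group had 2 samples left, the fit shared their spread over genes. Voom and the pseudocount of 0.1 gave larger median fold changes of the members, 2.25 and 1.91 in WT and 2.94 and 2.62 in GKO tumours. The replicate block changed no call between GKO and WT tumours (0 of 47).

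Changes of sign were counted over all members and settings. At least 1 setting turned the sign of 0 members in WT tumours against WT non-tumours, of Pttg1 in GKO tumours against GKO non-tumours, of 8 members between non-tumours of both genotypes, of 20 between tumours, of 35 in the interaction, and of 4 (WT), 8 (GKO) and 6 (between genotypes) in the comparisons with normal livers or among them. Of the 20 members fixed by name, these changed sign between tumours. With WT tumours 1 and 2 averaged, the log2 differences were 0.0372 for Mki67, 0.41 for Ccnb1, 0.14 for Mad2l1, 0.53 for Cdc20, 0.0081 for Cenpa and 0.14 for Kif11. With a pseudocount of 0.1, Ccnb1 was 0.15 and Kif11 0.20, with voom 0.19 and 1.23, and with median centring Ccna2 was -0.0001. With 1 replicate left out, Mki67 ran from -1.17 to 0.0632, Ccna2 from -0.67 to 0.50, Ccnb1 from -0.84 to 0.46, Ccnb2 from -0.56 to 1.09, Bub1 from -0.74 to 0.0218, Mad2l1 from -0.80 to 0.18, Cdc20 from -1.26 to 0.61, Birc5 from -0.84 to 0.54, Cenpa from -0.85 to 0.0841, Kif11 from -0.39 to 0.25 and Smc4 from -0.98 to 0.0350. The cause was not tested.

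Depth limits the low members: in GKO non-tumours 8 to 12 of the 47 had 3 reads or fewer, and no fold change is given against a group whose samples all lie there.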

Other observations

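Ratios between members differed from tumour to tumour. The TPM of Ccnb2 divided by that of Cdk1 was 2.15, 1.99 and 4.10 in WT tumours 1 to 3, and 14.8, 4.65 and 6.12 in GKO tumours 1 to 3, without overlap. It was 4.56 in WT non-tumour 2. This ratio was chosen after the values were seen. Of the 1081 pairs of mitosis genes, 183 (16.9%) had ratios that did not overlap between WT and GKO tumours. Kif20a (26 of its 46 pairs) and Ccnb2 (25) were in the most, where the Kif20a level is uncertain through its overlap with Cdc23. No share was computed for pairs of other genes, and the pairs share genes and samples. The count is therefore not shown to be a difference between genotypes.

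Pttg1 was at 34 reads in GKO non-tumour 2, against at least 333 in every other sample, while the median of all 47 members there was 0.21 on the log2 scale, against 0.28 in both other GKO non-tumours.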
